A study of Homo sapiens with 8 samples.

Results

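The brush border hydrolases are enzymes that sit on the microvilli of the small intestine and finish the digestion of sugars, peptides and phosphate esters. The genes were the 9 whose symbol in the deposited table was SI, MGAM, LCT, TREH, ALPI, DPP4, ANPEP, MME or ENPEP, out of 57603 entries, and all 9 were found once. They were measured by poly-A RNA-Seq in 22Rv1, an established human prostate cancer cell line, in 8 libraries that formed 4 groups of 2. HNF4G-ABBV-075 cells and HNF4G-DMSO cells carried an HNF4G transgene, and GFP-ABBV-075 cells and GFP-DMSO cells carried a GFP transgene. Both transgenes were driven by the murine stem cell virus promoter, so all 4 groups were transduced derivatives of the same line. ABBV-075, an inhibitor of the BET bromodomain proteins, was given at 25 nM for 24 hours, and DMSO was its vehicle. The design asked what the inhibitor did to intestine-type transcripts and whether they stayed high when HNF4G came from a promoter outside its own locus.

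Enterocytes anchor these enzymes in the apical membrane with their active sites facing the lumen. SI (sucrase-isomaltase), MGAM (maltase-glucoamylase), LCT (lactase) and TREH (trehalase) split disaccharides and short starch fragments. DPP4 (CD26) removes dipeptides that end in proline or alanine from the start of a peptide, ANPEP (aminopeptidase N, CD13) and ENPEP (aminopeptidase A) remove neutral and acidic residues 1 at a time, and MME (neprilysin, CD10) cuts small peptides internally. ALPI is the intestinal alkaline phosphatase. HNF4A, HNF4G, CDX and GATA factors are known regulators of enterocyte genes, and DPP4, ANPEP, MME and ENPEP are also made by kidney, prostate and other epithelia.

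The windows in front of the transcription starts are shown first because they hold, or lack, the letters that these factors are known to bind. RefSeq entries of GRCh38.p14 matched 8 of the 9 genes, all but LCT, in 12 windows of 250 bases (MME had 4 starts and ANPEP had 2). Both strands were searched for 3 motifs. The letters of the HNF4 motif were CAAAGT. For the CDX factors the run was TTTAT. The GATA motif read AGATAA. No match overlapped another motif in these windows, while the windows of the MME starts partly overlap each other. The windows of SI and MGAM are printed because they held CDX motifs and shared the run described after them, that of TREH because it held HNF4 motifs, and that of DPP4 because it held none of the 3 motifs. Each reads 5′ to 3′ on the strand of the gene, with matches to any of the 3 motifs, or to their reverse complements, in capitals. The positions are chr3:165078497-165078746 on the minus strand for SI, chr7:141995629-141995878 on the plus strand for MGAM, chr11:118679651-118679900 on the minus strand for TREH and chr2:162074216-162074465 on the minus strand for DPP4. Only for SI does the RefSeq start coincide with the edge of the GENCODE span of the gene. The windows of MGAM, MME, ENPEP and ANPEP lie wholly inside the longer GENCODE spans. Those of TREH, ALPI and DPP4 lie partly inside, and the span of DPP4 runs to 162074394, within its printed window.
SI: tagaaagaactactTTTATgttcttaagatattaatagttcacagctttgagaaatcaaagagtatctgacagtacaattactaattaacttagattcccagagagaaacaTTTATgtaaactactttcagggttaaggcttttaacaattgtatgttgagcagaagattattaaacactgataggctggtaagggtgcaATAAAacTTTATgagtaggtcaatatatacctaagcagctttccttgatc
MGAM: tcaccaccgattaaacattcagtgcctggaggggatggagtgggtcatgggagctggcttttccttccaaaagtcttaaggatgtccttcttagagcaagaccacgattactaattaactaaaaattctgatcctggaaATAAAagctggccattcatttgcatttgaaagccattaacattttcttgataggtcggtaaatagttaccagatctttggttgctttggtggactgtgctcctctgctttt
TREH: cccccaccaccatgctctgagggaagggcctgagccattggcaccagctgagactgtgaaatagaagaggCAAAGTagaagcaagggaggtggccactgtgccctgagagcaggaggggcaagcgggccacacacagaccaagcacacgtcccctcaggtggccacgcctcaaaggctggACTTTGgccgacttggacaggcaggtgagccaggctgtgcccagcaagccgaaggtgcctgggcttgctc
DPP4: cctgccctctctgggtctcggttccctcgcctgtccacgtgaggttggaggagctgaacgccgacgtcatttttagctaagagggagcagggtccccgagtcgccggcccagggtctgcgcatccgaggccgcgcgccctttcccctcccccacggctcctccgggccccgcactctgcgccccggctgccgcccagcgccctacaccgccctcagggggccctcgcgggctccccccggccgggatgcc

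The longest run that the SI and MGAM windows shared was attactaattaact, 14 bases at -173 to -160 in SI and at -144 to -131 in MGAM. Positions are counted from -1 as the base just before the start. On either strand 0 of the other 35114 windows of this length held the run. It was picked from these windows, and how often any run of 14 bases recurs was not computed. The 0 therefore does not show that the run is particular to SI and MGAM. CAAAGT stood in the windows of TREH, with 2 matches, and ALPI, with 1, and in 10.3% of all 35116 windows. TTTAT stood in the windows of SI, with 4 matches, ENPEP, with 2, and MGAM, with 1, and in 32.7% of all windows. AGATAA stood in none of the 12 windows and in 9.17% of all windows. No window of MME, DPP4 or ANPEP held any of the 3 motifs. In the windows of MME and DPP4 the GC content was 63.2% to 73.6%, against 31.6% for SI and 41.6% for MGAM. A match is a run of letters and says nothing about binding in these cells.

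**Figure D1:**
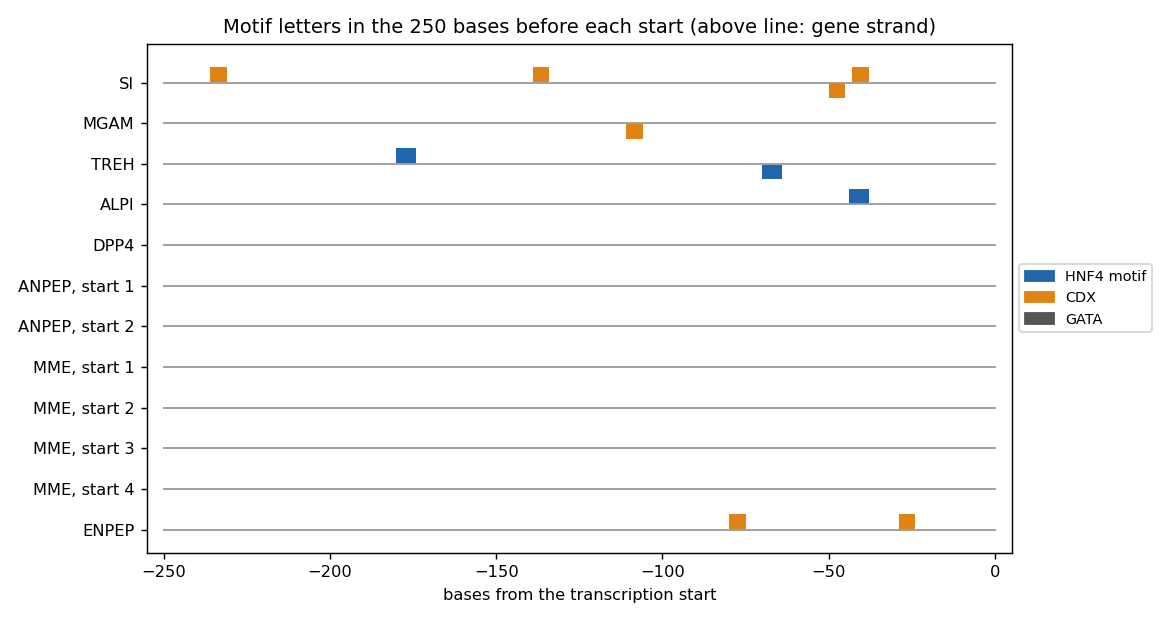
Matches to 3 motifs in the 250 bases before each RefSeq start of 8 hydrolase genes; the horizontal axis gives bases from the start, boxes above a line lie on the strand of the gene and boxes below it on the other strand. SI holds 4 CDX matches and MGAM 1, TREH holds 2 HNF4 motifs, and the 4 MME starts, the 2 ANPEP starts and DPP4 hold no match.

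Each library held 31508275 to 40262678 reads, and the deposited values were its reads per gene after scaling by a single size factor (normalized counts). The HNF4G transcript had 43972 and 34116 normalized counts in HNF4G-ABBV-075 cells, 10109 and 12104 in HNF4G-DMSO cells, 206.0 and 213.4 in GFP-ABBV-075 cells and 1088 and 993.0 in GFP-DMSO cells, which matched the transgene labels. All 6 prostate epithelial markers were present in every library, and their summed level was 87505 to 117120 normalized counts. The blood, endothelial and stromal list of 13 genes summed to 334.8 to 400.3 in ABBV-075 libraries, against 1204 to 1546 in DMSO libraries, most of it from LUM and COL1A1; CD3E and CDH5 were at 0 in all 8 libraries, and PTPRC, CD68 and PECAM1 stayed at or under 4.04. The part of that list in the results on ABBV-075 was not tested. The reads of HNF4G-DMSO library 2 and HNF4G-ABBV-075 library 1 came from transcripts of lower mean GC content, 46.6% and 46.7%, against 47.7% to 48.3% in the other 6 libraries, and results that change without this pair are given both ways.

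Genes whose mean over the 8 libraries reached 10 normalized counts were tested with limma on log2(normalized count + 1), and 5 of the 9 hydrolases passed: SI, TREH, DPP4, MME and ENPEP. The other 4 were low, and MGAM, LCT and ALPI were at the limit of detection. MGAM had 6 reads in all 8 libraries together and LCT had 5, with at most 3 and 2 reads in any library. ALPI had 0 reads in every library, where 3 reads, the limit that a count of 0 allows, correspond to 2.59 to 3.46 normalized counts. Reads that MGAM and ALPI may share with their family relatives (MGAM2, and ALPP and ALPG) were not examined. MGAM2 was also at 0, while ALPP and ALPG stayed at or under 4.61 normalized counts. ANPEP was detected in all 8 libraries with 67 reads in total and lay just under the minimum, with a mean of 8.28.

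SI, which cuts sucrose and the branch points of starch, lost most of its transcript under ABBV-075 in both lines, and the HNF4G transgene made no detectable difference to the low level. SI lies at chr3:164978898-165078496 (hg38, minus strand, 48 exons). SI had 30.1 and 13.4 normalized counts in HNF4G-ABBV-075 cells, against 242.4 and 288.7 in HNF4G-DMSO cells. It had 17.6 and 12.7 normalized counts in GFP-ABBV-075 cells, against 145.2 and 179.8 in GFP-DMSO cells. Every inhibited library was far below every vehicle library of either line. The inhibited mean was 8.18% of the vehicle mean in HNF4G cells and 9.33% in GFP cells. SI fell by 3.65 ± 0.36 (SE) on the log2 scale in HNF4G cells (limma, adjusted p = 0.00032) and by 3.35 ± 0.36 in GFP cells (limma, adjusted p = 0.00041). By size of fall SI stood at rank 47 of 17876 genes in HNF4G cells and rank 83 in GFP cells. In HNF4G cells SI was higher than in GFP cells by 0.71 ± 0.36 under DMSO (limma, adjusted p = 0.47) and by 0.40 ± 0.36 under ABBV-075 (limma, adjusted p = 0.62), with 95% intervals of -0.12 to 1.53 and -0.42 to 1.23. Under ABBV-075 the ranges of the 2 lines overlapped, and without the pair of libraries of lower GC content the difference was -0.15.

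TREH, the enzyme for trehalose, a sugar of fungi and insects, was the other disaccharidase with a measurable level. It lies at chr11:118657316-118679690 (minus strand, 15 exons). TREH had 29.1 and 53.5 normalized counts in HNF4G-ABBV-075 cells, against 62.1 and 51.9 in HNF4G-DMSO cells. It had 8.81 and 17.3 normalized counts in GFP-ABBV-075 cells, against 28.1 and 36.4 in GFP-DMSO cells. The inhibited and vehicle libraries overlapped in HNF4G cells and did not overlap in GFP cells. TREH fell by 1.30 ± 0.39 on the log2 scale in GFP cells (limma, adjusted p = 0.036), and the change in HNF4G cells was -0.51 ± 0.39 (limma, adjusted p = 0.36). HNF4G libraries lay above GFP libraries under both treatments, by 1.60 ± 0.39 under ABBV-075 (limma, adjusted p = 0.11) and 0.81 ± 0.39 under DMSO (limma, adjusted p = 0.45), and neither difference passed the threshold. The call in GFP cells rests on 23 reads in GFP-ABBV-075 cells and 65 in GFP-DMSO cells and was lost in limma with no minimum on the mean (adjusted p = 0.076), in edgeR (adjusted p = 0.051), in DESeq2 (adjusted p = 0.076) and in limma without GFP-DMSO library 1 (adjusted p = 0.092), GFP-DMSO library 2 (adjusted p = 0.18) or GFP-ABBV-075 library 1 (adjusted p = 0.21). The difference between lines under ABBV-075 was 2.02 without the pair of libraries of lower GC content (limma, adjusted p = 0.0040). The end of TREH overlaps PHLDB1, which lies on the opposite strand and averaged 519.6 normalized counts, so without strand some TREH reads cannot be told apart from PHLDB1 reads.

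DPP4, the peptidase that trims incretin hormones, was the most abundant hydrolase transcript per kilobase in 3 of the 4 groups and was lower under ABBV-075 in both lines and higher with HNF4G under ABBV-075. It lies at chr2:161992245-162074394 (minus strand, 26 exons). DPP4 had 205.8 and 197.6 normalized counts in HNF4G-ABBV-075 cells, against 727.2 and 903.2 in HNF4G-DMSO cells. It had 50.7 and 86.5 normalized counts in GFP-ABBV-075 cells, against 315.5 and 339.4 in GFP-DMSO cells. The 4 groups did not overlap, and their order from high to low was HNF4G-DMSO, GFP-DMSO, HNF4G-ABBV-075, GFP-ABBV-075. DPP4 fell by 2.00 ± 0.24 on the log2 scale in HNF4G cells (limma, adjusted p = 0.00077) and by 2.29 ± 0.24 in GFP cells (limma, adjusted p = 0.00037), so that 24.7% of the vehicle mean was left in HNF4G cells and 20.9% in GFP cells. Under ABBV-075 it was higher in HNF4G cells by 1.59 ± 0.24 (limma, adjusted p = 0.018), and under DMSO the difference was 1.31 ± 0.24 (limma, adjusted p = 0.060). The 2 middle groups, HNF4G-ABBV-075 and GFP-DMSO, differed by -0.70 ± 0.24 (limma, adjusted p = 0.055), in a comparison added after the values were seen. This difference was called in 11 of 22 alternatives, among them edgeR (adjusted p = 0.037) and DESeq2 (adjusted p = 0.020). The call under ABBV-075 was lost without GFP-ABBV-075 library 1 (1.21, limma adjusted p = 0.072), HNF4G-ABBV-075 library 1 (1.56, adjusted p = 0.053) or either GFP-DMSO library (adjusted p = 0.057 each), and with only the 4 libraries compared (adjusted p = 0.069). The difference under DMSO was called in edgeR (adjusted p = 0.027), in DESeq2 (adjusted p = 3.6e-06) and in limma without the pair of libraries of lower GC content (1.15, adjusted p = 0.0084), without GFP-ABBV-075 library 1 or 2 (adjusted p = 0.022 and 0.023) and without HNF4G-ABBV-075 library 1 or 2 (adjusted p = 0.042 and 0.039).

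MME, the neutral endopeptidase known as CD10, had the largest response to the transgene among the hydrolases tested and was higher in inhibited HNF4G cells than in vehicle GFP cells. It lies at chr3:155024124-155183704 (plus strand, 23 exons). MME had 404.7 and 329.3 normalized counts in HNF4G-ABBV-075 cells, against 659.4 and 769.2 in HNF4G-DMSO cells. It had 55.1 and 74.98 normalized counts in GFP-ABBV-075 cells, against 155.8 and 197.0 in GFP-DMSO cells. Both inhibited HNF4G libraries were above both vehicle GFP libraries, and no 2 groups overlapped. MME was higher in HNF4G cells by 2.49 ± 0.20 on the log2 scale under ABBV-075 (limma, adjusted p = 0.0010) and by 2.02 ± 0.20 under DMSO (limma, adjusted p = 0.0043), ranks 30 and 46 from the top of 17876 genes. It fell with ABBV-075 by 0.96 ± 0.20 in HNF4G cells (limma, adjusted p = 0.0098) and by 1.43 ± 0.20 in GFP cells (limma, adjusted p = 0.0015). HNF4G-ABBV-075 cells exceeded GFP-DMSO cells by 1.06 ± 0.20 (limma, adjusted p = 0.0060), again in the comparison added after the values were seen. The call under DMSO was lost without GFP-DMSO library 1 (1.85, limma adjusted p = 0.082) or library 2 (2.19, adjusted p = 0.053), that of ABBV-075 in HNF4G cells without HNF4G-DMSO library 2 (-0.85, adjusted p = 0.052), and that against GFP-DMSO without GFP-DMSO library 1 (0.89, adjusted p = 0.058).

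ENPEP, the peptidase that trims angiotensin, had the smallest falls among those called and no detectable response to the transgene. It lies at chr4:110365733-110565285 (plus strand, 20 exons). ENPEP had 112.6 and 83.4 normalized counts in HNF4G-ABBV-075 cells, against 135.7 and 165.1 in HNF4G-DMSO cells. It had 82.6 and 87.7 normalized counts in GFP-ABBV-075 cells, against 161.6 and 168.7 in GFP-DMSO cells. Inhibited and vehicle libraries did not overlap in either line, while the lines overlapped under both treatments. ENPEP fell by 0.62 ± 0.19 on the log2 scale in HNF4G cells (limma, adjusted p = 0.039) and by 0.95 ± 0.19 in GFP cells (limma, adjusted p = 0.0069). Between HNF4G and GFP cells the difference was 0.18 ± 0.19 under ABBV-075 (limma, adjusted p = 0.67, 95% interval -0.25 to 0.62) and -0.14 ± 0.19 under DMSO (limma, adjusted p = 0.74, 95% interval -0.58 to 0.30). The call in HNF4G cells was lost in DESeq2 (adjusted p = 0.11), in limma with no minimum on the mean (adjusted p = 0.076) or with only the 4 libraries compared (adjusted p = 0.14), and in limma when any 1 of the 7 libraries other than HNF4G-ABBV-075 library 1 was left out (adjusted p = 0.053 to 0.18), with -0.41 without HNF4G-ABBV-075 library 2. The call in GFP cells was lost without GFP-DMSO library 2 or GFP-ABBV-075 library 1 (limma, adjusted p = 0.053 in each).

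ANPEP, the aminopeptidase CD13, was highest in an inhibited group, unlike the 5 genes tested. It lies at chr15:89784895-89815401 (minus strand, 21 exons). ANPEP had 18 and 14 reads in HNF4G-ABBV-075 cells (17.5 and 14.4 normalized counts), against 13 and 6 reads in HNF4G-DMSO cells (12.6 and 5.19 normalized counts). It had 5 and 1 reads in GFP-ABBV-075 cells (5.51 and 1.15 normalized counts), against 5 and 5 reads in GFP-DMSO cells (4.84 and 5.05 normalized counts). Both HNF4G-ABBV-075 libraries lay above the other 6. With no minimum on the mean, the difference between HNF4G and GFP cells under ABBV-075 was 2.17 ± 0.63 in limma (adjusted p = 0.26) and 2.18 in edgeR (adjusted p = 0.024), so the tools disagreed on the call. ABBV-075 against DMSO gave 0.88 ± 0.63 in HNF4G cells (limma, adjusted p = 0.46) and -0.67 ± 0.63 in GFP cells (limma, adjusted p = 0.55).

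**Figure D2:**
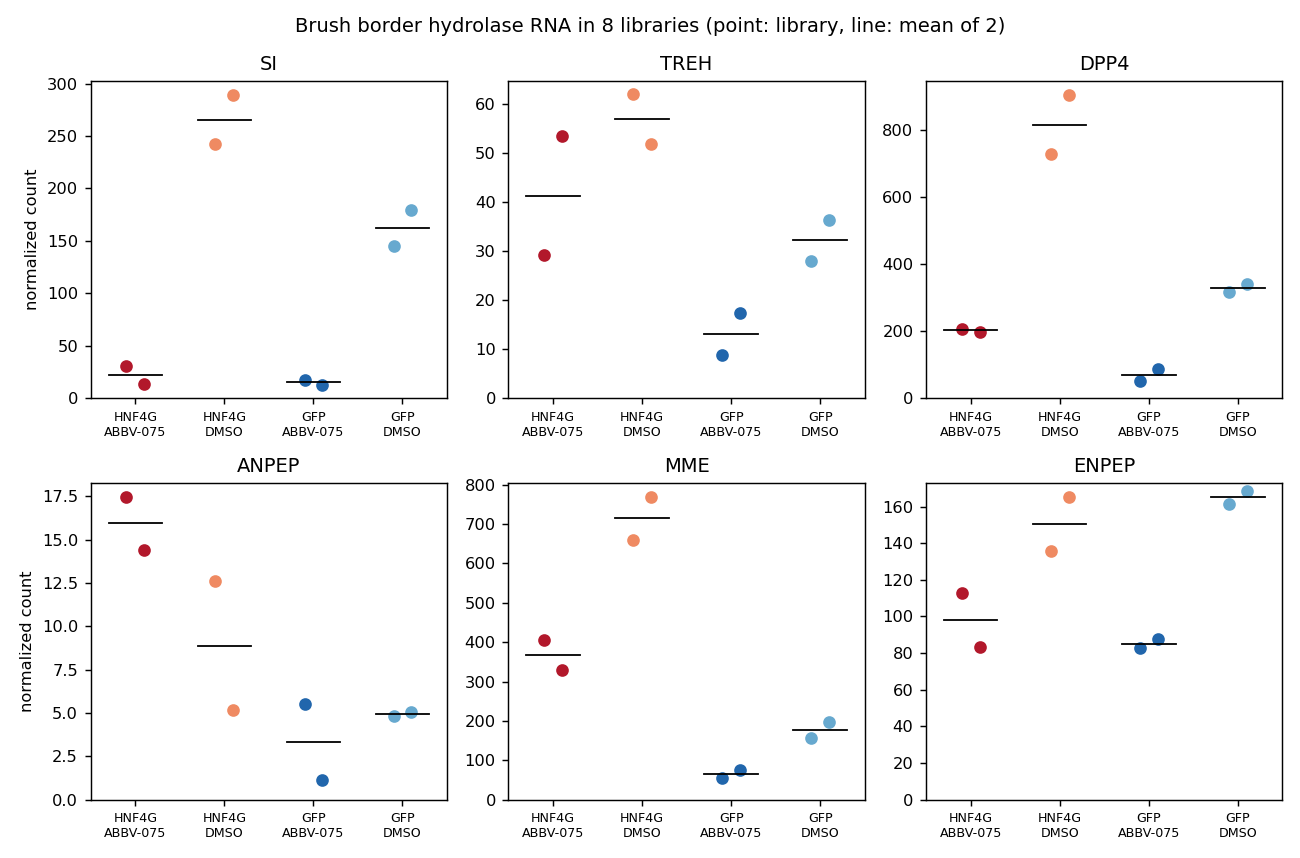
Normalized counts of 6 hydrolase transcripts in each library (points) with the mean of the 2 libraries of a group (lines); each panel has its own vertical axis from 0. SI is low in the 4 inhibited libraries, between 12.7 and 30.1, while MME in HNF4G-ABBV-075 cells, at 329.3 and 404.7, lies above GFP-DMSO cells, at 155.8 and 197.0.

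Counted over the 5 hydrolases tested, ABBV-075 lowered 4 in HNF4G cells, where 18.3% of all tested genes were called lower and 31.2% were called in either direction, and the exception was TREH. In GFP cells 5 of 5 were lower, where 19.2% of all tested genes were called lower and 33.4% in either direction. The median log2 change of the 5 was -0.96 in HNF4G cells and -1.43 in GFP cells, against 0.02 and -0.01 over all 17876 genes tested. HNF4G cells exceeded GFP cells in 2 of 5 under ABBV-075 (MME and DPP4), where 1.64% of all tested genes were called higher and 1.97% in either direction, and in 1 of 5 under DMSO (MME), where 0.783% were called higher, 0.117% lower and 0.901% in either direction. The median of the 5 was 1.59 under ABBV-075 and 0.81 under DMSO, against 0.00 over all genes in both. In HNF4G-ABBV-075 against GFP-DMSO cells 1 of 5 was higher and 2 were lower (SI and ENPEP), where 16% of all tested genes were called higher, 18.8% lower and 34.8% in either direction, and ENPEP was no longer called in limma without GFP-DMSO library 1 or 2 (adjusted p = 0.080 and 0.091) or HNF4G-ABBV-075 library 2 (adjusted p = 0.054). These counts leave out MGAM, LCT, ALPI and ANPEP, and in RNA from whole cultures fewer expressing cells and less RNA per cell cannot be told apart. Nothing in the labels tells whether both libraries of a group were grown separately, so each p-value sets a difference against library spread that may be only technical.

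Whether the transgene changed the response to the inhibitor was tested directly as the interaction, the change with ABBV-075 in HNF4G cells minus that in GFP cells. The HNF4G transcript itself averaged 39044 normalized counts in HNF4G-ABBV-075 cells, against 11107 in HNF4G-DMSO cells. HNF4G cells thus met ABBV-075 and DMSO at different HNF4G levels, and the part of this in the interaction was not tested. In limma 0 of the 5 hydrolases were called, 0 had an unadjusted p under 0.05, and 0 were called by edgeR or by DESeq2; 0.0112% of all tested genes, 2 in number (HNF4G itself and VIL1), were called. The interaction was 0.79 ± 0.55 for TREH (95% interval -0.49 to 2.06), 0.47 ± 0.29 for MME (-0.20 to 1.14), 0.33 ± 0.27 for ENPEP (-0.29 to 0.94), 0.29 ± 0.34 for DPP4 (-0.50 to 1.07) and -0.30 ± 0.51 for SI (-1.47 to 0.86). A difference in response of 1 log2 unit in size lies inside the interval of each of these except ENPEP, so with 2 libraries a group such a difference was not detectable and is not shown to be absent. MME and DPP4 were therefore higher in inhibited HNF4G cells than in inhibited GFP cells while the fall from the vehicle level was not shown to differ between the lines.

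**Figure D3:**
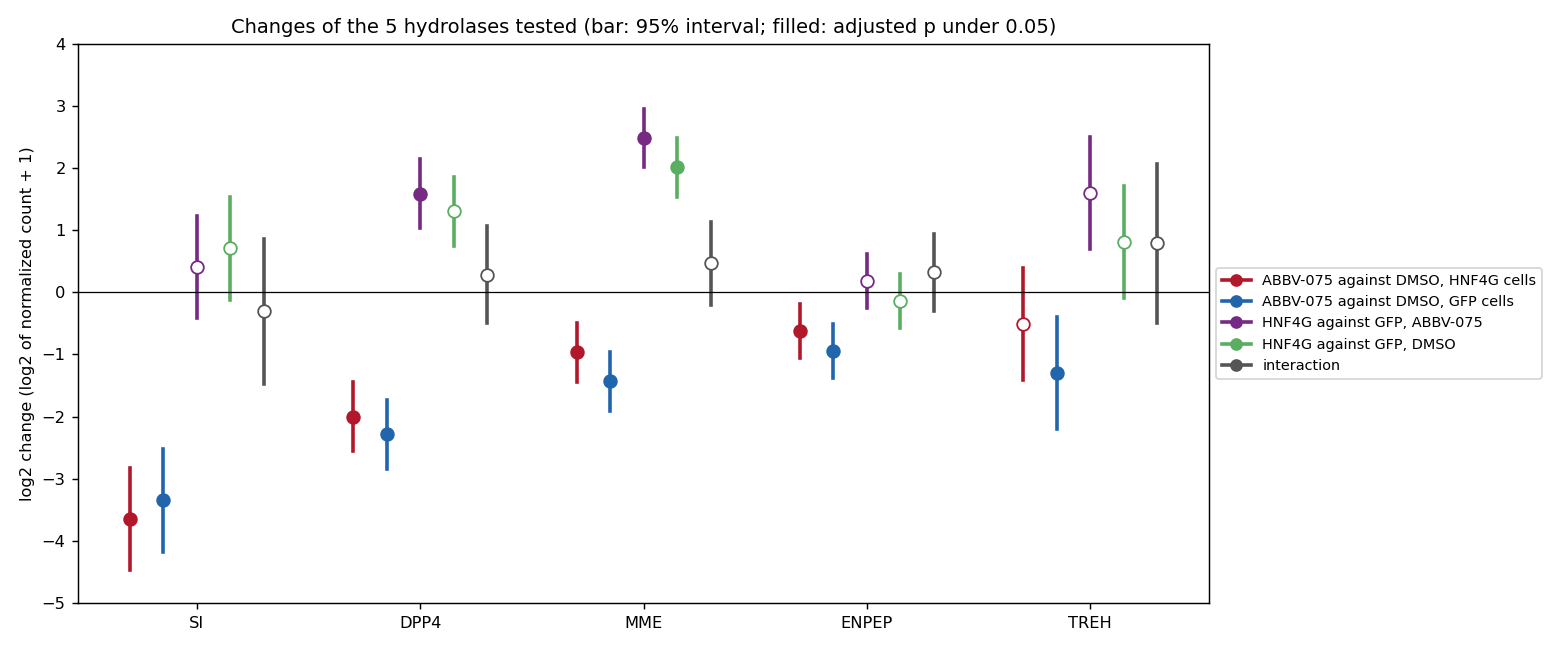
Log2 changes of the 5 hydrolases tested in 4 comparisons and the interaction, with 95% intervals; filled points passed an adjusted p of 0.05 in limma. The points for ABBV-075 against DMSO all lie below 0, from -3.65 for SI to -0.51 for TREH, and the largest positive ones are those of MME at 2.49 and 2.02.

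Per kilobase of transcript, which allows levels to be compared between genes, the make-up of the hydrolase RNA shifted. In HNF4G-ABBV-075 cells MME led with 64.9 ± 9.4 normalized counts per kb (SD, n = 2), followed by DPP4 with 56.4 ± 1.6, TREH with 15.04 ± 6.28, ENPEP with 14.3 ± 3.0, ANPEP with 4.35 ± 0.59 and SI with 3.62 ± 1.97. MME and DPP4, TREH and ENPEP, and ANPEP and SI were neighbours within 1 SD of each other. In HNF4G-DMSO cells DPP4 led with 228.2 ± 34.8 normalized counts per kb, followed by MME with 126.3 ± 13.7, SI with 44.2 ± 5.4, ENPEP with 21.9 ± 3.0, TREH with 20.7 ± 2.6 and ANPEP with 2.43 ± 1.43, and of these neighbours ENPEP and TREH lay within 1 SD of each other. In GFP-ABBV-075 cells DPP4 led with 19.2 ± 7.1 normalized counts per kb, with ENPEP at 12.4 ± 0.52, MME at 11.50 ± 2.49, TREH at 4.75 ± 2.18, SI at 2.52 ± 0.58 and ANPEP at 0.91 ± 0.84. DPP4 did not exceed ENPEP, nor ENPEP MME, by more than 1 SD there. In GFP-DMSO cells DPP4 led with 91.6 ± 4.7 normalized counts per kb, followed by MME at 31.2 ± 5.1, SI at 27.0 ± 4.1, ENPEP at 24.1 ± 0.73, TREH at 11.7 ± 2.1 and ANPEP at 1.35 ± 0.041. MME, SI and ENPEP were neighbours within 1 SD of each other in that order. The share of MME in the summed level per kb was 43.0% and 38.5% in HNF4G-ABBV-075 libraries, against 22.3% and 22.4% in GFP-ABBV-075 libraries. The share of SI was 3.01% and 1.47% in HNF4G-ABBV-075 libraries, against 9.92% and 9.98% in HNF4G-DMSO libraries.

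**Figure D4:**
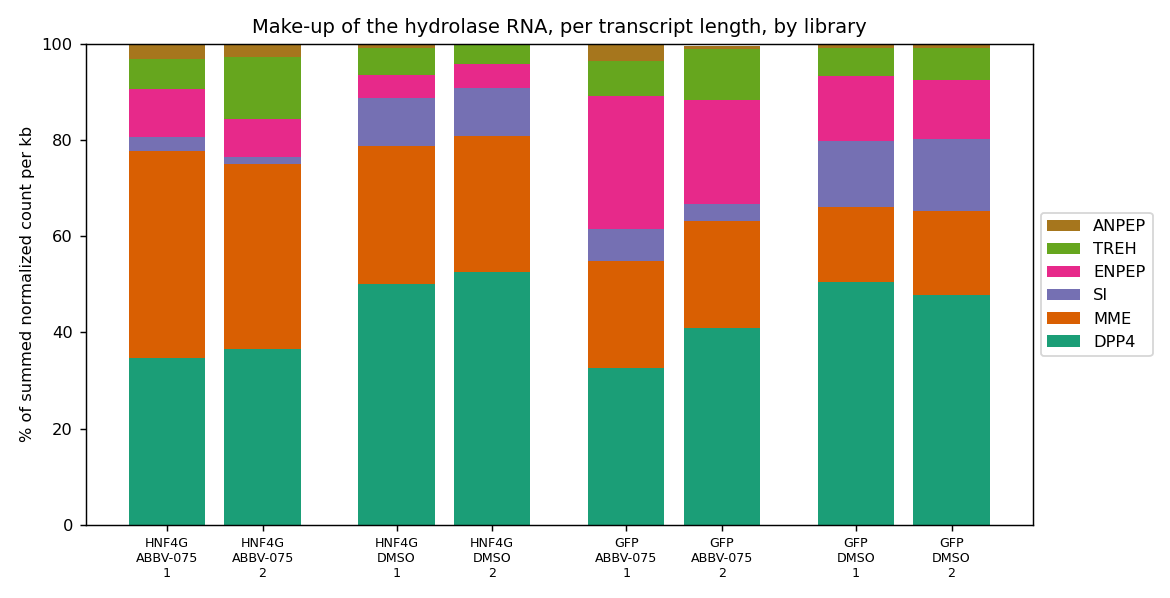
Share of each hydrolase in the summed normalized count per kilobase of transcript, by library; bars stack the 6 genes with a visible share, and MGAM and LCT make up the remainder. MME takes 43.0% and 38.5% of the HNF4G-ABBV-075 libraries, and ENPEP takes 27.6% and 21.6% of the GFP-ABBV-075 libraries.

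The GC content of the transcripts and the libraries moved together within the 2 HNF4G groups. SI, MME, ENPEP and DPP4, with transcripts of 38.3% to 42.0% GC, were higher in the library of lower GC content in both groups, by ratios of 1.04 for DPP4 to 2.25 for SI. TREH, with 57.4% GC, was lower there, at ratios of 0.836 in HNF4G-DMSO cells and 0.544 in HNF4G-ABBV-075 cells. ANPEP, with 58.4% GC, was lower in HNF4G-DMSO library 2 than in library 1 and higher in HNF4G-ABBV-075 library 1 than in library 2. After a correction of every library for GC content and length, MME was higher in HNF4G cells by 2.33 under ABBV-075 and 1.82 under DMSO, and DPP4 by 1.48 and 1.16, all 4 called in limma (adjusted p = 3.5e-05, 0.00027, 0.0027 and 0.014).

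Across the 8 libraries the hydrolases did not form 1 pattern. SI and ENPEP were most alike, with a Pearson correlation of log2 levels of 0.944, TREH and MME followed with 0.902, and MME and ENPEP were least alike with 0.50. Among 12610 other genes that averaged 50 normalized counts or more, those most like SI were LRRC8D, DUS4L and DTX3L (0.999, 0.998 and 0.998), those most like DPP4 were PDGFC, MEP1A and DTX4 (0.995, 0.993 and 0.992), and those most like MME were BICC1, PTGFR and KCNJ3 (0.999, 0.993 and 0.991). For ENPEP they were WDR75, TXLNG and PIERCE2 (0.993, 0.992 and 0.991), and for TREH, over 12611 genes, they were ITGA7, PLEKHA7 and CERS2 (0.958, 0.957 and 0.955). The points share 4 groups of 2 libraries, so these values describe likeness over groups, and no p is given.

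Of 14 other brush border enzymes 5 were tested. With ABBV-075, 1 was higher and 2 were lower in each line, and the pair that fell was the same, MEP1A and GGT1; over all tested genes 31.2% were called in HNF4G cells and 33.4% in GFP cells, with 18.3% and 19.2% called lower. MEP1A, the alpha subunit of the metalloprotease meprin, had 67.9 and 50.4 normalized counts in HNF4G-ABBV-075 cells, against 356.8 and 382.0 in HNF4G-DMSO cells. It had 12.1 and 17.3 normalized counts in GFP-ABBV-075 cells, against 132.6 and 129.3 in GFP-DMSO cells, and the order of its 4 groups was that of DPP4. MEP1A fell by 2.64 ± 0.22 in HNF4G cells (limma, adjusted p = 0.00018) and by 3.09 ± 0.22 in GFP cells (limma, adjusted p = 8.6e-05), and HNF4G cells exceeded GFP cells by 1.94 ± 0.22 under ABBV-075 (limma, adjusted p = 0.0051) and 1.49 ± 0.22 under DMSO (limma, adjusted p = 0.025). GGT1, which starts the breakdown of glutathione outside the cell, fell by 1.55 in HNF4G cells and fell by 1.44 in GFP cells (limma, adjusted p = 0.018 and 0.023). FOLH1, the folate hydrolase known in prostate as PSMA, rose by 0.58 in HNF4G cells and 0.45 in GFP cells (limma, adjusted p = 0.0071 and 0.019). The call of MEP1A under DMSO was lost without any 1 of the GFP-DMSO or HNF4G-DMSO libraries (limma, adjusted p = 0.12 to 0.27), and those of GGT1 and FOLH1 in GFP cells without any 1 of the 4 GFP libraries (limma, adjusted p = 0.092 to 0.12). GGT1 in HNF4G cells was -1.19 without HNF4G-DMSO library 1, where the call was lost (limma, adjusted p = 0.082), and -0.91 without HNF4G-ABBV-075 library 1 (limma, adjusted p = 0.028).

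The relatives of the hydrolases outside the brush border were called with ABBV-075 about as often as all genes. Of 32 listed, 24 were tested. With ABBV-075 2 were higher and 6 lower in HNF4G cells, and 3 higher and 6 lower in GFP cells, beside 31.2% and 33.4% of all tested genes called in either direction. Between the lines 0 were called under either treatment, beside 1.97% (ABBV-075) and 0.901% (DMSO) of all tested genes called. An unadjusted limma p under 0.05, a looser threshold, was reached by 5 of 24 (ABBV-075) and 3 of 24 (DMSO). The share of all genes at that threshold is not given here. PHEX, a relative of MME that acts in phosphate balance, fell by 3.25 in HNF4G cells and fell by 3.70 in GFP cells (limma, adjusted p = 0.00038 and 0.00020). TRHDE, a relative of ANPEP that inactivates thyrotropin-releasing hormone, fell by 2.24 in HNF4G cells and fell by 2.05 in GFP cells (limma, adjusted p = 6.8e-05 and 8.0e-05). LVRN and RNPEP, other aminopeptidases of that family, rose, LVRN by 2.84 in HNF4G cells and 2.36 in GFP cells (limma, adjusted p = 0.0016 and 0.0033), and RNPEP by 0.48 and 0.56 (adjusted p = 0.0069 and 0.0033). ALPL, the alkaline phosphatase of bone, liver and kidney, was named after its values were seen because ALPI was at 0: it had 228.1 and 316.0 normalized counts in HNF4G-ABBV-075 cells, against 850.4 and 679.3 in HNF4G-DMSO cells, and fell by 1.50 ± 0.19 in HNF4G cells and fell by 1.50 ± 0.19 in GFP cells (limma, adjusted p = 0.00095 and 0.00085).

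The transporters that take up what the hydrolases release were followed beside them. Of 10 listed, 6 were tested, with ABBV-075 lowering 4 in HNF4G cells and 2 in GFP cells, where 18.3% and 19.2% of all tested genes were called lower, and HNF4G cells exceeding GFP cells in 2 under each treatment, where 1.64% (ABBV-075) and 0.783% (DMSO) of all tested genes were called higher. SLC15A1, the intestinal carrier of di- and tripeptides, fell by 1.72 in HNF4G cells and fell by 0.69 in GFP cells (limma, adjusted p = 0.0011 and 0.048), and was higher in HNF4G cells by 1.50 under ABBV-075 and 2.52 under DMSO (limma, adjusted p = 0.018 and 0.0033). SLC1A1, a glutamate and aspartate carrier, fell by 1.31 in HNF4G cells and fell by 1.52 in GFP cells (limma, adjusted p = 0.00058 and 0.00026), and was higher in HNF4G cells by 1.10 under ABBV-075 and 0.89 under DMSO (limma, adjusted p = 0.0099 and 0.040). SLC5A1, the sodium-glucose carrier, fell by 1.86 in HNF4G cells (limma, adjusted p = 0.028), with 14.6 and 14.4 normalized counts in HNF4G-ABBV-075 cells, against 63.0 and 48.4 in HNF4G-DMSO cells, while its change of -1.44 in GFP cells missed the threshold (limma, adjusted p = 0.066). SLC6A19, a carrier of neutral amino acids, had 0 and 5 reads in HNF4G-ABBV-075 cells, against 31 and 19 reads in HNF4G-DMSO cells, and its change of -3.23 (limma, adjusted p = 0.017) was -1.92 without HNF4G-ABBV-075 library 1 (limma, adjusted p = 0.026), and the call was lost without HNF4G-DMSO library 1 (-2.81, limma adjusted p = 0.077). Several other transporter calls were lost when 1 library was left out. That of SLC15A1 in GFP cells was lost when any 1 library was left out (limma, adjusted p = 0.054 to 0.21) and without the pair of libraries of lower GC content (limma, adjusted p = 0.072), that under DMSO without GFP-DMSO library 2 (limma, adjusted p = 0.053), and that under ABBV-075 without GFP-ABBV-075 library 1 or 2 or HNF4G-ABBV-075 library 1 (limma, adjusted p = 0.094, 0.14 and 0.070). That of SLC1A1 under DMSO was lost without any 1 GFP or HNF4G-DMSO library (limma, adjusted p = 0.074 to 0.34), and that under ABBV-075 without GFP-ABBV-075 library 1 or 2 (limma, adjusted p = 0.12 and 0.085). That of SLC5A1 was lost without any 1 of the 4 HNF4G libraries (limma, adjusted p = 0.058 to 0.11).

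Of 12 genes for the structure of the microvilli 11 were tested, and with ABBV-075 1 was higher and 4 were lower in each line, while HNF4G cells exceeded GFP cells in 4 under ABBV-075 and 3 under DMSO. Over all tested genes 31.2% in HNF4G cells and 33.4% in GFP cells were called with ABBV-075, and 1.64% (ABBV-075) and 0.783% (DMSO) were called higher in HNF4G cells. ANKS4B and MYO1A fell most, with changes of -1.88 in HNF4G cells and -3.75 in GFP cells for ANKS4B, a scaffold of the microvillus tip links, and -1.13 and -2.91 for MYO1A, a microvillus myosin (limma, adjusted p = 0.0062, 0.00026, 0.00082 and 1.7e-05). ANKS4B had 1 read in total in GFP-ABBV-075 cells, against 38 in GFP-DMSO cells, so the size of that fall is bounded by the detection limit. CDHR2, a cadherin of the links between microvilli, was the gene that rose, by 0.67 in HNF4G cells and 1.15 in GFP cells (limma, adjusted p = 0.033 and 0.0034), and the call in HNF4G cells was lost without GFP-ABBV-075 library 1 or 2, HNF4G-DMSO library 1 or 2 or HNF4G-ABBV-075 library 2 (limma, adjusted p = 0.054 to 0.11). The 3 calls between the lines under DMSO, ANKS4B, MYO1A and USH1C, were lost without either GFP-DMSO library (limma, adjusted p = 0.053 to 0.11), and that of USH1C also without either HNF4G-DMSO library (limma, adjusted p = 0.051 and 0.052). VIL1, which encodes villin, was called in the interaction at 1.71 ± 0.14 (limma, adjusted p = 0.018), a call lost without any 1 GFP or HNF4G-DMSO library (limma, adjusted p = 0.076 to 0.37). Among 12 gut transcription factors, HNF4G included, 6 were tested. With ABBV-075 2 were higher and 3 lower in HNF4G cells, and 1 was higher and 3 lower in GFP cells. Over all tested genes 31.2% and 33.4% were called in either direction. CDX1 and CDX2, homeobox factors of the intestine, were at 0 reads in all 8 libraries. HNF4A fell with ABBV-075, with changes of -3.75 ± 0.46 in HNF4G cells and -3.50 ± 0.46 in GFP cells (limma, adjusted p = 0.00084 and 0.0010). It had 12 reads in total in HNF4G-ABBV-075 cells, against 202 in HNF4G-DMSO cells. In GFP-ABBV-075 cells it had 1 read, against 32 in GFP-DMSO cells. The size of its fall in GFP cells is therefore bounded by the detection limit, and the 2 sizes cannot be compared. KLF5 went the other way. Its mean was 2689 normalized counts in HNF4G-ABBV-075 cells, against 1622 in HNF4G-DMSO cells. In GFP-ABBV-075 cells it was 1880, against 1065 in GFP-DMSO cells.

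**Figure D5:**
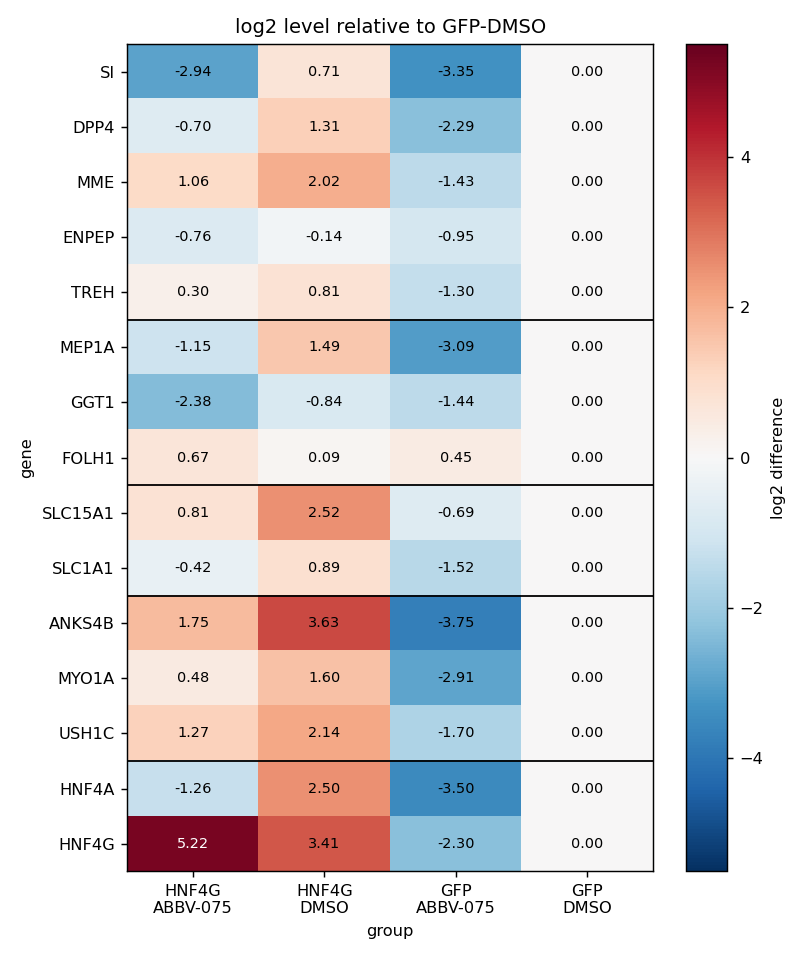
Log2 level of the 5 hydrolases tested and of 10 related genes in each group, relative to GFP-DMSO cells; columns are groups, and blocks from the top are hydrolases, other brush border enzymes, transporters, microvillus genes and HNF factors. In HNF4G-ABBV-075 cells SI stays at -2.94 and MEP1A at -1.15, while MME is at 1.06 and ANKS4B at 1.75; the column of HNF4G-ABBV-075 comes from the comparison added after the values were seen.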

How the data were processed

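Bulk poly-A RNA-Seq of 8 libraries of 22Rv1 cells was read from 1 table of normalized counts. The deposited values are a signal, made by the authors from reads per gene and a single scaling factor for each library; alignment was to hg38 with STAR (version 2.6 in the submitters' processing notes), and the counting tool and its use of strand are not given in the sources used here. Dividing by the smallest step of each library gave whole reads for 100% of values above 0 (tolerance 0.01), 31508275 to 40262678 reads per library. Of 57605 entries, 2 repeated identifiers were dropped. The main test was limma 3.58.1 under R 4.3.3, its trend option on, applied to log2(normalized count + 1), 4 group means, all 8 libraries, a mean of at least 10, two-sided, Benjamini-Hochberg adjusted over 17876 genes at 0.05. Fold changes on this scale understate changes of low genes. edgeR 4.0.16 and DESeq2 1.42.0 were run on the recovered reads. Scripts were tested on simulated data. Positions, exons, GC content and length are those of GENCODE 44 (Ensembl canonical transcript), and promoters of RefSeq GRCh38.p14. Members and gene lists were chosen with earlier results of these data known. Named genes were all 9 hydrolases, HNF4G, up to 2 largest called rises and falls per list and comparison, and the 3 genes most like each called hydrolase; exceptions are stated, and 1 gene under the rule is not reported here. Comparing HNF4G-ABBV-075 with GFP-DMSO was added after values were seen. Alternatives covered a pseudocount of 0.5 or 8, a minimum mean of 100 or none, DESeq2 and TMM scaling, a replicate block, only the 4 libraries compared, GC and length correction, and leaving out libraries; leave-out fits of the listed genes were added after values were seen.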

Additional observations from a re-analysis of the deposited data

How the results depend on the processing

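The 30 log2 changes of the 5 hydrolases tested were refitted 649 times in all; 0 calls turned direction, 31 refits lost a call and 27 gained one. The number of hydrolases called with ABBV-075 ranged from 3 to 5 in GFP cells and from 2 to 4 in HNF4G cells when 1 library was left out (5 and 4 as reported). Between HNF4G and GFP cells under DMSO it ranged from 0 to 2 (1 as reported), and was 2 with a pseudocount of 8, with only the 4 libraries compared, in edgeR, in DESeq2, with the GC and length correction, with that correction and a replicate block, with the pair of low-GC libraries left out, and with a crossed replicate block. Under ABBV-075 it ranged from 1 to 2 (2 as reported) and was 1 with only the 4 libraries compared; TREH was gained, giving 3, with the GC correction alone or with the block, without the low-GC pair and with the crossed block. In the added comparison of HNF4G-ABBV-075 with GFP-DMSO cells it ranged from 1 to 4 (3 as reported). In the interaction it was 0 under all 21 alternatives run.

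Counts over all genes moved more. In GFP cells 5966 genes were called with ABBV-075, against 10750 with only the 4 libraries compared. In HNF4G cells 5575 were called, with 2785 as the lowest and 9727 (GC correction) as the highest over all alternatives. Between the lines 161 were called under DMSO, at most 1379, and 353 under ABBV-075, at most 3183. In the interaction 2 were called, and many more without both libraries of low GC content. Leaving out 1 library moved each of these counts both down and up. With the replicate block 4708, 4307, 72, 168 and 1 genes were called in the 5 planned comparisons, and the block lost 1 hydrolase call, ENPEP with ABBV-075 in HNF4G cells (adjusted p = 0.074 in limma). Numbers did not pair the libraries: correlations of same-numbered deviations ran from -0.59 to 0.13. The pairing crossed in HNF4G-DMSO, added after seeing the data, called 6518, 6080, 196, 392 and 3 genes. Where an arm was left with 1 library, that library was assumed to vary like the others. Rescaling moved the median of all genes by under 0.1. The causes were not tested. Depth limits MGAM, LCT, ALPI and ANPEP.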
